A study of Ptychidio jordani with 7 samples.

Results

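RNA sequencing was used to set kidney against heart, liver, spleen, gill and fin in the ratmouth barbel, Ptychidio jordani, which is a carp relative from fresh water. The comparison held 6 of the 7 libraries of the study and all 26107 genes of the deposited table. Muscle, the remaining tissue, was left out of the contrast because it shares egg genes with kidney, and its value is given beside each result. Each tissue was 1 library from fish labelled as normal, and the labels give no age, sex, treatment or number of animals. Without replicates no difference below could be tested, and neither p-values nor intervals are given. Gene names and descriptions are those of the deposited annotation, and copies of 1 gene may share reads.

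In bony fish the kidney does several jobs at once. Its nephrons filter blood in glomeruli, recover sugars, amino acids and salts in the proximal tubule, and adjust ions in the distal tubule and collecting duct. Blood cells are made between the tubules, work that in mammals belongs to bone marrow. The front of the organ also holds steroid-making interrenal cells and catecholamine-making chromaffin cells.

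Values are the deposited FPKM, which scale fragments to the length of the gene and the size of the library. A fold or log2 difference is a ratio on the FPKM + 1 scale, which understates the change of genes at low levels. Calls of higher in kidney needed an FPKM of 10 or more there, with FPKM + 1 reaching 5-fold over whichever of the 5 other tissues was highest. A gene was called lower when each of the 5 others was at least 10 and kidney FPKM + 1 was at most 20% of the lowest of them. The spleen-labelled library is named that way throughout because hepatocyte genes held about as much of it as of liver. The 61 hepatocyte genes held 19.1% of its summed FPKM and 22.0% of that of liver, against 0.0273% in kidney. FPKM are shares of a library, and median-of-ratios factors, which bring the typical gene of the 6 libraries to 1 level, ran on the log2 scale from 1.12 in kidney to -1.77 in liver. The median gene was 0.33 higher in kidney than the mean of the 5 others as deposited, and -0.05 after median-of-ratios scaling, so list medians are to be read against these values. List counts are likewise to be read against all genes, of which 2.46% were called higher and 38.6% were highest of the 6 tissues in kidney. Table totals give no read depth, so the depth of each library is unknown.

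The 4 genes that mark the kidney sample were all at their highest there. The organic anion transporter slc22a6 (Pjo20977) was 116 in kidney, against 0.10 in heart, 0.14 in liver, 0.10 in the spleen-labelled library, 0.04 in gill, 0.02 in fin and 3.28 in muscle. PDZK1 (Pjo09820), a scaffold that holds carriers at the tubule surface, was 104 in kidney, between 0.02 and 0.08 in the 5 others and 3.50 in muscle. Slc6a13 (Pjo18630), which takes up GABA and taurine, was 278 in kidney, 2.69 in fin, 0.25 or less in the other 4 tissues and 8.70 in muscle. LYZ (Pjo23827), a lysozyme of granulocytes and macrophages, was 1573 in kidney, against 15.3 in heart, 0.80 in liver, 0.41 in the spleen-labelled library, 25.7 in gill, 9.24 in fin and 85.8 in muscle. These genes are the ones given for the sample, so their levels describe it and do not test the label. With tissue RNA, fewer cells of a type and less RNA per cell cannot be told apart.

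Of the 26107 genes, 642 (2.46%) were called higher in kidney and 2 (0.00766%) lower. After median-of-ratios scaling the split was 38 higher to 19 lower, and all 38 were among the 642. The minimum of 10 was applied to the scaled values, and scaling lowers the values of kidney. A higher deposited FPKM in kidney was thus needed for each call of higher after scaling, here and below. The part of this limit in the loss of calls was not separated from that of the fold. Muscle divided the 642 genes sharply. In 70 of them muscle FPKM + 1 was at most 20% of kidney, in 461 muscle was at or above kidney, and 111 lay between. The 70 were the steeper group, with a median of 12.8-fold over the highest other tissue and 45 genes at 10-fold or more. Among the 461 the median was 5.85-fold and 1 gene, bora (Pjo00658), a mitotic kinase activator, reached 10-fold. Its level was 37.0 in kidney, 2.47 in fin and 37.3 in muscle.

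The 2 groups held different kinds of genes. Solute carriers made up 17 of the 57 genes with a symbol in the group low in muscle (29.8%), against 6 of 378 (1.59%) in the group at or above kidney in muscle and 2.28% of all genes with a symbol. The lists of nephron, blood and egg genes accounted for 22, 5 and 1 of the 70, and for 1, 0 and 61 of the 461. On none of these lists were 42 of the 70 and 399 of the 461. The egg lists were drawn up knowing that their genes are high in kidney and muscle, so the split of the egg genes is only a description. In abundance the order of the 2 groups was the reverse of that in fold. The 70 genes held 0.796% of the summed kidney FPKM and the 461 held 9.07%. The tissue nearest to kidney also differed, as gill was the highest of the 5 others for 30 of the 70 genes and fin for 448 of the 461.

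**Figure D1:**
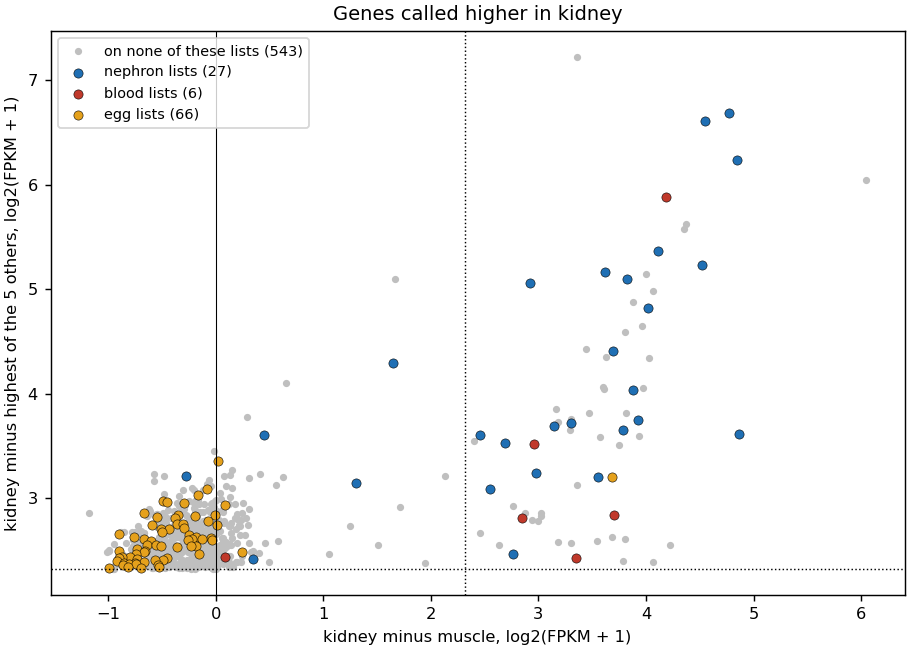
Each point is 1 of the 642 genes called higher in kidney, placed by kidney minus muscle on the x axis and kidney minus the highest of heart, liver, labelled spleen, gill and fin on the y axis, both as log2(FPKM + 1). The horizontal dotted line is the 5-fold limit, the vertical dotted line marks muscle at 20% of kidney, and the solid line marks equal levels. Of the 27 nephron genes (blue) 22 lie right of the vertical dotted line, and of the 66 egg genes (orange) 61 lie left of the solid line or on it. The egg lists were drawn up knowing that their genes are high in kidney and muscle.

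Single comparisons showed which tissue limits a call. With an FPKM of at least 10 in kidney and a 5-fold difference, 5434 genes were higher in kidney than in liver (20.8%), 4472 than in the spleen-labelled library (17.1%), 3094 than in heart (11.9%), 1943 than in gill (7.44%) and 904 than in fin (3.46%). Against muscle the count was 501 (1.92%). These counts are of deposited values and were not repeated after scaling. On the log2 scale the median-of-ratios factors were -1.77 in liver, -0.96 in the spleen-labelled library, -0.25 in heart, 0.72 in gill and 0.94 in fin. Across these 5 tissues the counts fall as the factors rise, so their order cannot be told apart from that of the scale. In the other direction, with the minimum set on the other tissue, 1358 genes were lower in kidney than in gill (5.2%), 1172 than in fin (4.49%), 869 than in heart (3.33%), 556 than in the spleen-labelled library (2.13%), 528 than in liver (2.02%) and 234 than in muscle (0.896%). Without fin in the reference the 642 became 1594, and without heart the 2 lower genes became 20.

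Nephron genes were the largest listed group among the called genes that were low in muscle. Of 280 genes on the 7 nephron lists, 27 were called higher (9.64%, against 2.46% of all genes), and 129 were highest of the 6 tissues in kidney (46.1%, against 38.6%). Only 116 of the 280 reached an FPKM of 10 in any of the 6 tissues. The median difference of the nephron genes from the mean of the 5 others was 0.60, against 0.33 over all genes. After median-of-ratios scaling it was 0.11, against -0.05, and 12 of the 27 calls were left. In the 22 called genes that were low in muscle, the level in muscle was 3.77% of kidney at the median, with quartiles of 3.31% and 6.51%, while the median in gill was 0.208%. The way these genes were picked set an upper bound on the values in both tissues.

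Genes of the glomerular filter were low. None of the 23 podocyte genes was called higher (0%, against 2.46% of all genes) and 7 were highest in kidney (30.4%, against 38.6%). For a list this small no call is near the share of all genes. NPHS1 (Pjo15560), the nephrin of the slit diaphragm, was 6.06 in kidney, against 0.55 in heart, 0.07 in liver, 0.14 in the spleen-labelled library, 4.40 in gill, 3.64 in fin and 1.32 in muscle. Gill and fin were thus nearest to kidney. Podxl (Pjo04492), a sialomucin of podocytes and vessels, was 3.62 in kidney and 66.4 in heart.

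Proximal tubule carriers, the longest of the nephron lists, had the most calls by number. Of 89 genes, 12 were called higher (13.5%, against 2.46% of all genes) and 54 had their highest level in kidney (60.7%, against 38.6%). By share the distal tubule and collecting duct list below had more calls, at 15.6%. The median difference was 1.22, and 0.37 after scaling. Besides Slc6a13 and slc22a6, described above, several carry organic anions. SLC22A7 had a pair of called copies, of which Pjo17309 was 42.9 in kidney, at most 0.06 in the 5 others and 1.54 in muscle, and Pjo17310 was 46.1 in kidney, at most 1.40 in the 5 others and 14.1 in muscle. The copies were thus alike in kidney and far apart in muscle. SLC22A13 (Pjo23914), a carrier of urate and other anions in mammals, was 40.4 in kidney, between 0.18 and 0.46 in the 5 others and 1.56 in muscle. Several further carriers were called at lower levels. Slc2a9 (Pjo11150), a urate carrier of the glucose transporter family, was 18.4 in kidney and 0.18 or less in the 5 others. The monocarboxylate carrier slc5a8 (Pjo07014) was 23.6 in kidney and 0.95 or less in the 5 others, and the sulfate carrier Slc13a1 (Pjo24587) was 22.9 and 0.12 or less. SLC13A3 (Pjo08986), for dicarboxylates, was 16.3 in kidney and 1.03 in fin. Slc7a9 (Pjo17495), for cystine and basic amino acids, was 11.9 in kidney and 0.11 or less in the 5 others. Slc2a9 and the 4 carriers named after it were between 0.32 and 1.96 in muscle.

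Copies of 1 carrier could differ in their tissues. SLC9A3, the sodium-proton exchanger that recovers sodium in the proximal tubule, had a kidney copy (Pjo19011) at 14.0 in kidney, 0.16 in gill and 0.69 in muscle. A second copy (Pjo19012), picked out after its values were seen, was 2.12 in kidney and 386 in gill. The neutral amino acid carrier Slc6a19 had a called copy (Pjo18706) at 13.4 in kidney and 0.09 or less in the 5 others. Its copy Pjo16652 was 20.6 in kidney and 5.30 in fin, and was not called for that reason alone.

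**Figure D2:**
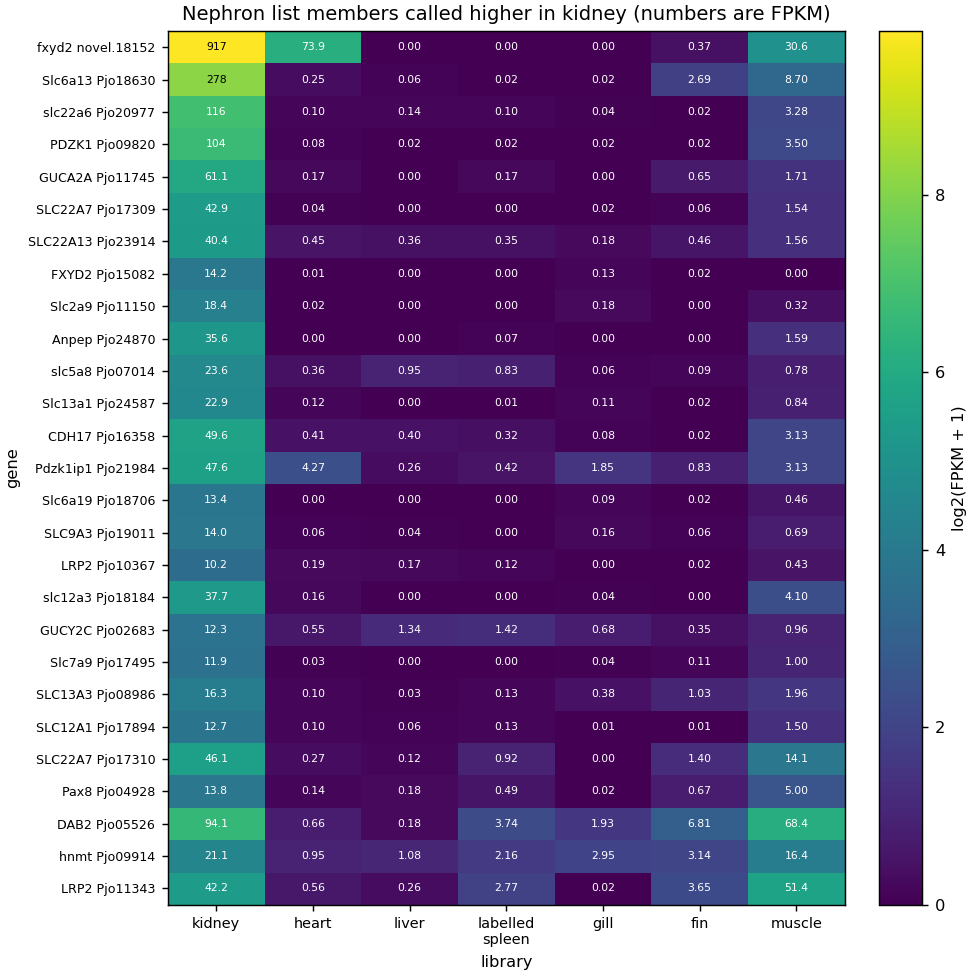
Levels of the 27 nephron genes called higher in kidney, 1 gene per row and 1 library per column, with colour for log2(FPKM + 1) and the FPKM printed in each cell. Kidney exceeds heart, liver, labelled spleen, gill and fin in every row, heart stands out for fxyd2, and the muscle column is raised in the lower rows, up to 68.4 for DAB2 and 51.4 for LRP2 Pjo11343.

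Genes for protein uptake and the brush border were split. Of 48 genes, 6 were called (12.5%, against 2.46% of all genes) and 20 were highest in kidney (41.7%, near the 38.6% of all genes). The median difference of 0.39 was close to that of all genes. Anpep (Pjo24870), an aminopeptidase of the brush border, was 35.6 in kidney, 0.07 in the spleen-labelled library, 0 in the 4 others and 1.59 in muscle. Pdzk1ip1 (Pjo21984), a partner of PDZK1, was 47.6 in kidney, 4.27 in heart, 1.85 or less in the 4 others and 3.13 in muscle. The endocytic receptor LRP2, or megalin, had copies with opposite muscle values. Pjo10367 was 10.3 in kidney and 0.43 in muscle, whereas Pjo11343 was 42.2 in kidney and 51.4 in muscle, with 3.65 in fin and 2.77 in the spleen-labelled library. DAB2 (Pjo05526), the adaptor that links megalin to the endocytic coat, was 94.1 in kidney, 6.81 in fin and 68.4 in muscle. CUBN (Pjo23686), the cubilin that works with megalin, was 3.81 in kidney, 0.04 or less in the 5 others and 0.24 in muscle.

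Tubule enzymes did not set kidney apart from liver. Of 24 genes, 1 was called higher (4.17%, against 2.46% of all genes) and 17 were highest in the spleen-labelled library. The called gene, hnmt (Pjo09914), which breaks down histamine, was 21.1 in kidney, 3.14 in fin and 16.4 in muscle. The median difference of the list was 0.42 as deposited and -0.88 after scaling, so its direction depends on the scale.

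Distal tubule and collecting duct genes overlapped with the gill. Of 45 genes, 7 were called higher (15.6%, against 2.46% of all genes). In kidney 13 were highest (28.9%, against 38.6% of all genes) and in gill 17. The median difference was 0.12, with -0.03 after scaling. The most abundant was fxyd2 (a locus added to the annotation), the gamma subunit that tunes the sodium pump, at 917 in kidney, 73.9 in heart, 0 in liver, in the spleen-labelled library and in gill, 0.37 in fin and 30.6 in muscle. Heart was the only one of the 5 others with more than 1 FPKM of it. The salt carrier slc12a3 of the distal tubule again came in a kidney and a gill copy. Pjo18184 was 37.7 in kidney, 0.16 in heart, 0.04 in gill and 4.10 in muscle, whereas Pjo08455 was 28.2 in kidney, 240 in gill and 13.8 in muscle. SLC12A1 (Pjo17894), its relative of the diluting segment, was 12.7 in kidney, 0.13 or less in the 5 others and 1.5 in muscle.

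The hormone guanylin and its receptor were both called. GUCA2A (Pjo11745), guanylin, was 61.1 in kidney, 0.65 in fin, 0.17 or less in the 4 others and 1.71 in muscle. GUCY2C (Pjo02683), the guanylate cyclase that binds it, was 12.4 in kidney, between 0.35 and 1.42 in the 5 others and 0.96 in muscle. After median-of-ratios scaling GUCA2A kept its call and GUCY2C did not. Another GUCY2C copy (Pjo12696), picked out after its values were seen, was 0.18 in kidney and 7.63 in heart. CDH17 (Pjo16358), a cadherin that marks the kidney tubules of zebrafish, was 49.6 in kidney, 0.41 or less in the 5 others and 3.13 in muscle. A further called gene named FXYD2 (Pjo15082, 14.2 in kidney) is described in the annotation as a Down syndrome cell adhesion molecule-like protein, so its name is uncertain.

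Transcription factors of the nephron were low, and 1 of 25 was called (4%, against 2.46% of all genes). Pax8 (Pjo04928), needed to form kidney tubules, was 13.8 in kidney, 0.67 or less in the 5 others and 5.0 in muscle. The factor hnf4a (Pjo22945), shared by proximal tubule and hepatocytes, was 11.9 in kidney and 21.8 in liver. Pax8 was thus near 0 in liver and hnf4a was not. Of 26 genes of motile cilia, which drive fluid along fish nephrons, 18 were highest in kidney (69.2%, against 38.6% of all genes). Only 1 reached an FPKM of 10 there, and none was called. That gene, Spag6 (Pjo23942), of the axoneme, was 10.8 in kidney, 1.51 in fin and 14.0 in muscle. Kidney was above muscle in 16 of the 26, but the summed FPKM of the list was 47.8 in kidney and 51.0 in muscle.

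Genes of the kidney's endocrine cells were mostly low. None of 10 interrenal and 13 other endocrine genes, most of them of chromaffin cells, was called, and their median differences were 0.07 and -0.07, with -0.02 and -0.15 after scaling. Over all genes 2.46% were called, so no call in lists this small is near that share. The interrenal list reached an FPKM of 10 in kidney for FDX1, an electron carrier used by many cells (46.5 in kidney and 56.1 in muscle), and Hsd11b2, which inactivates cortisol (19.9 in kidney and 36.6 in heart). Of the steroid-making genes, star (Pjo12278), cyp17a1 (Pjo13618) and CYP21A2 (Pjo16642), which carry cholesterol into mitochondria and make cortisol from it, were 0.20, 0.25 and 0.08 in kidney, 0.20, 0.32 and 0.38 in fin, and 1.06, 4.61 and 3.46 in muscle. The catecholamine enzymes th (Pjo24446) and DBH (Pjo11233) were 0.03 and 0.01 in kidney, with th at 147 in gill.

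Blood-forming genes as a whole were called, and were highest in kidney, no more often than other genes. Of 333 genes on the 10 blood lists, 6 were called higher (1.8%, against 2.46% of all genes) and 117 were highest in kidney (35.1%, against 38.6%). Their median difference was 0.41, close to the 0.33 of all genes, and -0.02 after median-of-ratios scaling. The lists differed more than this sum shows.

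As deposited, most globin genes were highest in kidney, with heart next. The median-of-ratios factors were 1.12 in kidney and -0.25 in heart on the log2 scale. Dividing by them raises heart against kidney, so the order of these 2 tissues depends on the scale. Of 12 globin genes 10 were highest in kidney and none was called, and they held 17.9% of the summed FPKM of kidney, 8.72% of heart and 2.77% of gill. The alpha globin hba (Pjo03032) was 67752 in kidney, 31174 in heart, 1200 in liver, 521 in the spleen-labelled library, 8918 in gill, 2811 in fin and 2007 in muscle. For the 6 globins of at least 10 in kidney the level in heart was 46.0% of kidney at the median, in gill 13.8%, in fin 4.16%, in muscle 2.50% and in the spleen-labelled library 0.775%. Globins thus held the smallest share in the library labelled as a blood organ.

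Genes that act as red cells form followed the globins more loosely. The heme enzyme alas2 (Pjo09163) was 482 in kidney and 330 in heart, the anion exchanger slc4a1 (Pjo03587) 274 and 188, and the erythropoietin receptor Epor (Pjo02878) 44.3 and 35.8. In muscle the 3 genes were 16.1, 10.7 and 2.81. For the 12 red cell membrane genes of at least 10 in kidney, the level in heart was 74.5% of kidney at the median, above the 46.0% of the globins. Kel (Pjo16707), a blood group protein, was 155 in both kidney and heart. As deposited, heart reached the level of kidney among these members for some membrane genes but for none of the 6 globins. The highest of the 6 stood at 76.2% of kidney in heart. Both sets were limited to members of at least 10 in kidney, which leaves out genes low there. Of all 12 globins 2 were highest in heart, both below that limit. The median difference of the 17 erythroid regulators was 1.34, of the 23 heme and iron genes 1.41 and of the 20 membrane genes 2.09, with 0.39, 0.23 and 0.89 after scaling.

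Granulocyte genes gave 4 of the 6 blood calls. These were 8.51% of the 47 genes, against 2.46% of all genes. In kidney 24 had their highest level (51.1%, against 38.6% of all genes) and in gill 13. The median difference was 1.61, and 0.90 after scaling. Besides LYZ, described above, MPO (Pjo11173), a granule peroxidase whose description reads eosinophil peroxidase-like, was 76.0 in kidney, 2.78 in heart, 0.79 in liver, 0.86 in the spleen-labelled library, 5.69 in gill, 1.85 in fin and 8.93 in muscle. CYBB (Pjo11719), the catalytic subunit of the oxidative burst enzyme, was 67.0 in kidney, 8.51 in gill, 3.18 or less in the 4 others and 4.22 in muscle. ITGAX (Pjo13117), an integrin of myeloid cells, was 33.5 in kidney, 5.41 in gill and 2.39 in muscle. Gill was the highest of the 5 others for these 4 called genes. Summed over all 47 genes, FPKM was 3570 in kidney and 4789 in gill. Lect2 (Pjo14357), a chemotactic factor, was 394 in kidney, 53.8 in liver and 80.4 in the spleen-labelled library, which left it uncalled. Regulators of the same cells were shared with gill, as CEBPA (Pjo07781) was 155 in kidney and 90.6 in gill, and Cebpb (Pjo08996) 357 and 2098. CSF3R (Pjo16838), the receptor that drives neutrophil output, was 19.4 in kidney, 13.4 in fin and 11.2 in gill.

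B cell genes were divided between kidney and gill. Of 58 genes, 22 were highest in kidney (37.9%, against 38.6% of all genes) and 27 in gill. Calls numbered 2 (3.45%, against 2.46%), so both kidney counts were near the shares of all genes. CD22 (Pjo15997), an inhibitory receptor of B cells, was 49.7 in kidney, 6.21 in heart, 5.01 in gill, 5.41 in fin and 6.06 in muscle. The antigen receptor chains Cd79a (Pjo16376) and CD79B (Pjo12985) were 9.09 and 3.58 in kidney, against 5.02 and 2.13 in gill and 0.47 and 0.58 in muscle. The second call, pax5 (Pjo00810), a B cell factor, went with other tissues, at 11.9 in kidney, 0.28 in heart, 0.07 in liver, 0.79 in the spleen-labelled library, 0.65 in gill, 1.39 in fin and 11.2 in muscle. As deposited, muscle was near to kidney and fin came next, as for the oocyte factors FIGLA and Nobox described below and not for CD22. DNTT (Pjo13973), which adds bases to antigen receptor joints and was picked out after its values were seen, had muscle above kidney. It was 10.9 in kidney, 0 in gill, 1.48 in fin and 17.6 in muscle.

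**Figure D3:**
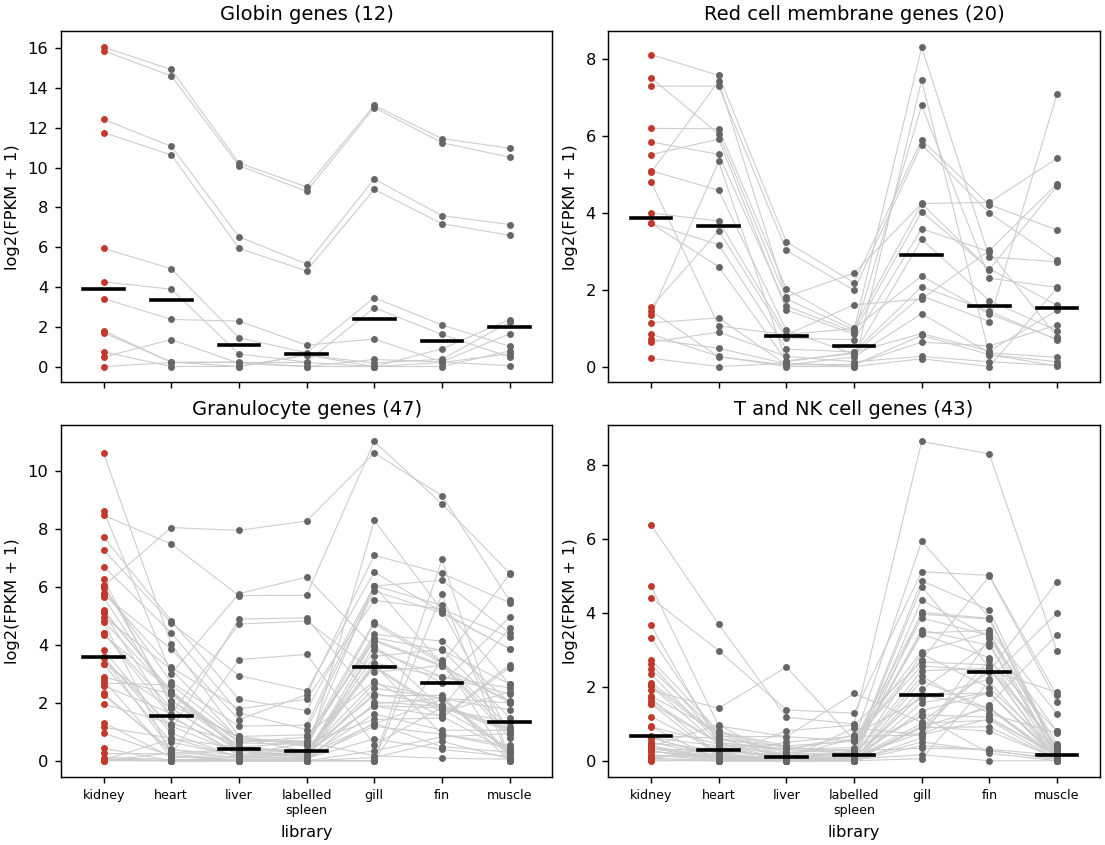
Levels of all genes of 4 blood lists in each library as log2(FPKM + 1), with 1 dot and line per gene, kidney in red and the list median as a black bar. The globin and red cell panels fall off from kidney through heart to the spleen-labelled library and rise again in gill, granulocyte genes are high in kidney and gill, and T and NK cell genes are higher in gill and fin than in kidney.

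Other blood cells did not set kidney apart. Among 43 T and NK cell genes 4 were highest in kidney (9.30%, against 38.6% of all genes), 24 in gill and 15 in fin. None was called, which in a list this small is near the 2.46% of all genes. CD3E (Pjo15788), part of the T cell receptor complex and picked out after its values were seen, was 4.57 in kidney, 28.2 in gill and 15.8 in fin. Among the 4 that were highest in kidney were Bcl11b (Pjo21177), described only as a zinc finger gene, and eomes (Pjo18732), a T-box factor. They were 25.4 and 11.7 in kidney, 27.7 and 9.63 in muscle, 4.32 and 1.86 in fin and 1.06 and 0.63 in gill. Muscle was thus near to kidney for both, and fin was above gill. Eomes is also known as a maternal factor in zebrafish eggs, and the source of its RNA here was not tested. Of 64 macrophage genes 12 were highest in kidney (18.8%, against 38.6% of all genes) and 33 in gill, with a median difference of -0.04. CTSS (Pjo16299), a lysosomal protease, was the most abundant, at 284 in kidney, 122 in gill and 334 in muscle.

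Of 18 thrombocyte genes, 6 were highest in kidney (33.3%, near the 38.6% of all genes) and 6 in fin. The receptor chains Gp1bb (Pjo09447) and Gp9 (Pjo23371) were 122 and 46.6 in kidney, 72.7 and 32.3 in heart and 34.2 and 9.67 in gill, an order close to that of the globins. Stem and progenitor genes were highest in kidney for 7 of 32 (21.9%, against 38.6% of all genes) and in gill for 13. LYL1 (Pjo06179), a factor of early blood cells, was 62.4 in kidney, 49.8 in heart, 18.9 in gill and 0.12 in muscle. GATA2 (Pjo11797) was 25.3 in kidney, 12.6 in heart and 0.62 in muscle, whereas MYB (Pjo22822), needed by blood stem cells, was 7.68 in kidney, against 75.03 in fin and 70.4 in gill. The list medians were 0.33 for thrombocytes and 0.25 for progenitors, near the 0.33 of all genes, and both were below 0 after scaling, at -0.12 and -0.20.

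**Figure D4:**
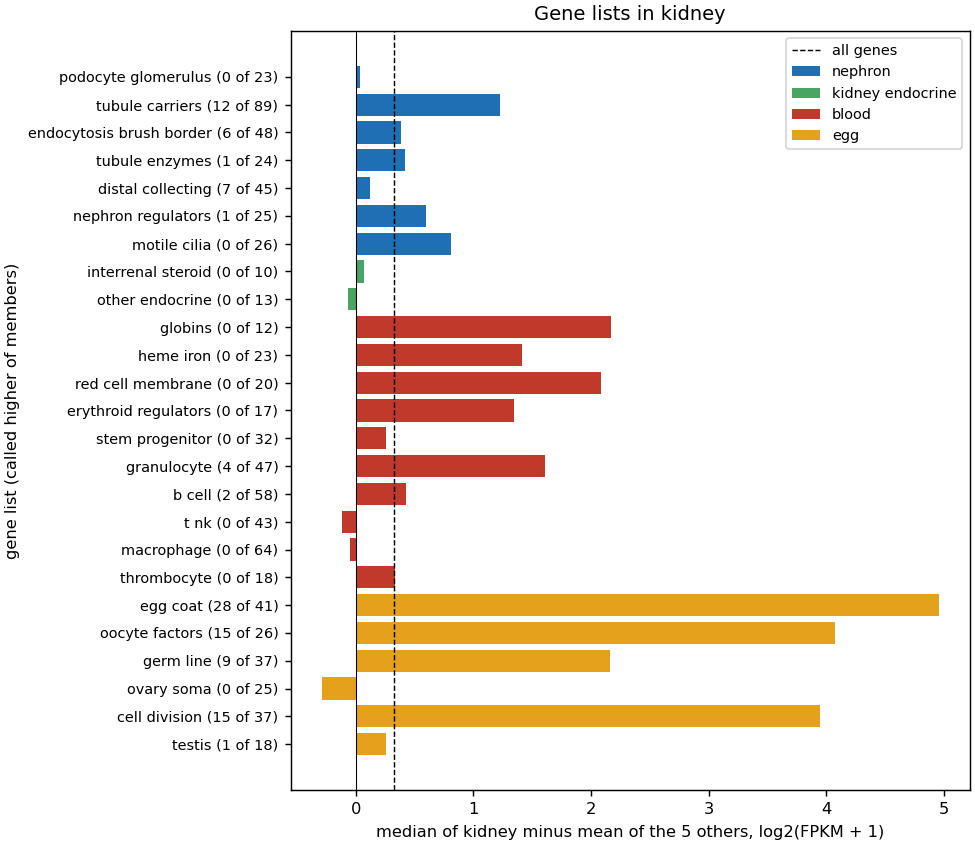
Median over each gene list of kidney minus the mean of heart, liver, labelled spleen, gill and fin, as log2(FPKM + 1), with the number of members called higher of all members beside each name and colours for the 4 classes. The dashed line is the median of all 26107 genes at 0.33. Egg coat (4.96), oocyte (4.07) and cell division (3.95) genes stand farthest right, and among nephron lists the tubule carriers (1.22).

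Egg genes were called more often than nephron or blood genes, and muscle exceeded kidney for most of them. Of 181 genes on the 6 egg lists, 66 were called higher (36.5%, against 2.46% of all genes) and 136 were highest of the 6 tissues in kidney (75.1%, against 38.6%). Their median difference was 3.46. After median-of-ratios scaling it was 2.30, and 0 of the 66 calls were left. Kidney was above muscle in 39 of the 181 only. The 6 lists cover egg coat, oocyte, germ line, cell division, ovary soma and testis genes. Of the 66 calls 15 were on the cell division list, whose genes are not particular to eggs. Egg lists were drawn up knowing that these genes are high in kidney and muscle, so their counts are a description. Egg cells are not a part of the kidney, and the part of egg genes in the other differences was not tested.

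Egg coat genes, which encode the proteins of the envelope around the egg, were uniform. All 41 were highest in kidney among the 6 tissues, and 28 were called. They held 5.60% of the summed FPKM of kidney, 0.336% of heart, 0.108% of liver, 0.631% of the spleen-labelled library, 0.00566% of gill, 1.21% of fin and 10.8% of muscle. ZP4 (Pjo20597), the most abundant of those called, was 4787 in kidney, 287 in heart, 64.9 in liver, 415 in the spleen-labelled library, 5.53 in gill, 895 in fin and 7937 in muscle. A ZP3 locus without a numbered name was higher still, at 5029 in kidney, but with 1168 in fin it fell short of the limit at 4.30-fold. Coat genes as deposited thus followed, in their medians, an order from muscle through kidney, fin, the spleen-labelled library, heart and liver to gill. The median-of-ratios factors were 0.94 in fin and -0.96 in the spleen-labelled library on the log2 scale. Dividing by them raises the spleen-labelled library against fin, so the order of these 2 tissues depends on the scale. A copy of ZP3 (Pjo16996) was the exception, at 11.8 in kidney, 0.39 in fin, 0.18 in gill and 0 in muscle.

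Proportions between tissues were set side by side for 4 of the egg lists. Ovary soma and testis were left out, with 2 and 1 members of at least 10 in kidney. That limit kept 41 of 41 coat genes, 23 of 26 oocyte factors, 15 of 37 germ line genes and 30 of 37 cell division genes. It leaves out genes low in kidney, which favours low percentages in the other tissues. Taken over members of at least 10 in kidney, the level in fin was 18.0% of kidney at the median for egg coat genes, 17.2% for oocyte factors, 14.5% for germ line genes and 18.8% for cell division genes. In the spleen-labelled library these medians were 8.67%, 7.70%, 7.62% and 7.58%, in heart 4.73%, 3.10%, 3.17% and 3.11%, and in liver 1.31%, 0.967%, 0.829% and 0.935%. Muscle stood at 170%, 129%, 123% and 133%. The 461 genes called higher in kidney with muscle at or above it gave 14.5% in fin, 7.49% in the spleen-labelled library, 2.94% in heart, 0.871% in liver and 127% in muscle, and 399 of them were on none of the lists. Their call itself required low values in fin and the other tissues and a high value in muscle. Gill ranged more widely, at 0.0694% for coat genes and 2.27% for cell division genes. The 70 called genes low in muscle had medians of 0.874% in fin, 0.172% in the spleen-labelled library and 1.45% in gill. Low values in these tissues were likewise required by their call.

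**Figure D5:**
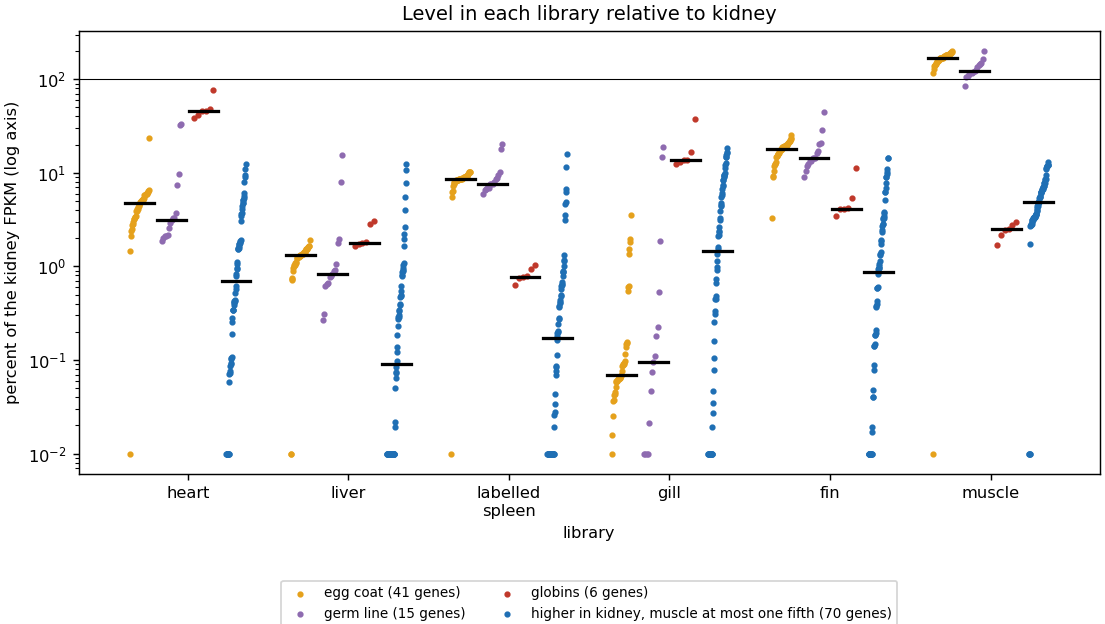
Level of single genes in each library as a percentage of their kidney FPKM, on a log axis, with the median as a black bar, a line at 100% and values of 0 drawn at 0.01%. The germ line genes and globins shown are those of at least 10 in kidney. Apart from the ZP3 copy at 0 and a few germ line genes, egg coat and germ line genes lie in narrow bands above 100% in muscle and around medians of 18.0% and 14.5% in fin, their medians are lowest in gill, globins are nearest to kidney in heart, and the 70 called genes low in muscle are spread widely.

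The 5-fold limit corresponds to about 20% of kidney, and several genes lay close to it. Just inside were TIMP3 (Pjo11238), an inhibitor of matrix proteases, at 266 in kidney and 52.4 in fin, and KPNA2 (Pjo10982), a nuclear import receptor, at 393 and 77.3, neither of them on a list. Just outside were the coat genes ZP4 Pjo03689, at 1508 and 302, and ZP4 Pjo02406, at 3332 and 667, both 4.99-fold. A fold limit of 10 left 1 egg gene, NANOG (Pjo24006), a factor of early embryos, and 20 nephron genes.

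Oocyte factors and germ line genes included the regulators that define egg cells. Of 26 oocyte factors 15 were called and 21 were highest in kidney. BMP15 (Pjo07570) and GDF9 (Pjo14091), growth factors secreted by the oocyte, were 131 and 21.3 in kidney, 23.7 and 1.69 in fin, and 184 and 24.1 in muscle. FIGLA (Pjo05925) and Nobox (Pjo19584), transcription factors of early oocytes, were 28.5 and 11.5 in kidney, 2.84 and 0.86 in fin, and 26.7 and 11.4 in muscle. Kidney and muscle were thus nearly level for FIGLA and Nobox. LHX8 (Pjo01485), another called gene of this list, was 93.4 in kidney and 142 in muscle. The oocyte histone message binder slbp2 (Pjo20947) was 396 in kidney and 737 in muscle. Of 37 germ line genes 9 were called, among them DDX4 (Pjo11286), or vasa, at 92.9 in kidney, 13.4 in fin and 126 in muscle, and piwil2 (Pjo05895), of the transposon-silencing pathway, at 25.2, 2.99 and 31.1. Genes of meiotic recombination differed among themselves, as mei4 (Pjo20036), which was called, was 49.6 in kidney, whereas Dmc1 (Pjo12714), picked out after its values were seen, was 0.05.

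As deposited, cell division genes also had muscle first, kidney next and then fin, by their medians, but with gill above liver. Of 37 genes 35 were highest in kidney and 15 were called. The cyclin ccnb2 (Pjo07891) was 325 in kidney, 12.7 in heart, 4.15 in liver, 24.4 in the spleen-labelled library, 0.28 in gill, 54.6 in fin and 477 in muscle. Aurora kinase B (aurkb, Pjo14041), of the chromosome passenger complex, was 214 in kidney, 30.9 in fin and 265 in muscle. The proliferation marker MKI67 (Pjo12916) and the topoisomerase TOP2A (Pjo12883), picked out after their values were seen, were far lower, at 4.56 and 4.67 in kidney, 2.23 and 2.45 in fin and 2.46 and 2.90 in muscle. Both were above muscle in kidney, as were 8 of the 37 in all.

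Genes of the cells that surround the egg were mostly low in kidney. None of 25 ovary soma genes was called (0%, against 2.46% of all genes), 5 were highest in kidney (20%, against 38.6%) and their median difference was -0.29. The aromatase cyp19a1 (Pjo24979) was 0 in kidney, 18.5 in fin and 0.31 in muscle, and the granulosa factor FOXL2 (Pjo02371) was 0.45 in kidney, 16.9 in gill and 1.78 in muscle. The inhibin chain INHA (Pjo06503) was an exception, at 12.8 in kidney, 3.30 in fin and 23.4 in muscle. Of 18 testis genes 1 was called (5.56%), ODF2 (Pjo08952), also a centrosome protein, at 12.96 in kidney and 14.6 in muscle, and dmrt1 (Pjo05270) was 0.27 in kidney.

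Many of the genes called higher in kidney were on no list. By the fixed order of ratios, a gene named NDUFB1 (Pjo20521) was 64.9 in kidney and listed at 0 in the 6 other libraries, so no fold is given. NDUFB1 is a small subunit of respiratory complex I, but the annotation describes this gene only as a hypothetical protein, so its name is uncertain. SLCO1C1 (Pjo04202), an organic anion and thyroid hormone carrier, was 62.2 in kidney, 0.28 or less in the 5 others and 2.06 in muscle. The cytochrome cyp2k1 (Pjo02840) was 57.6 in kidney, 0.23 or less in the 5 others and 1.87 in muscle. Genes picked out after their values were seen included the one of largest ratio, an unnamed cystatin-A-like gene (Pjo06104), at 349 in kidney, 1.34 in heart, 0 in the other 4 and 33.1 in muscle. A lysozyme g gene (Pjo14721) was 294 in kidney, 16.9 in gill and 23.1 in muscle, and a rhamnose-binding lectin gene (Pjo22793) was 143, 3.06 and 7.99. Leap2 (Pjo07569), an antimicrobial peptide named for the liver, was 33.3 in kidney, 0 in the 5 others, liver included, and 9.82 in muscle. CLTRN (Pjo22688), collectrin, which brings amino acid carriers such as Slc6a19 to the surface of mouse tubules, was 36.9 in kidney, 0.87 in fin and 1.32 in muscle.

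Genes lower in kidney than in all 5 other tissues were 2. SLC16A1 (Pjo09018), a carrier of lactate and other monocarboxylates, was 2.62 in kidney, against 321 in heart, 44.4 in liver, 69.1 in the spleen-labelled library, 27.5 in gill, 18.2 in fin and 12.95 in muscle. The early response gene egr1 (Pjo14708) was 8.34 in kidney, against 66.6 in heart, 60.6 in liver, 51.6 in the spleen-labelled library, 234 in gill, 198 in fin and 13.7 in muscle. Muscle was also below the 5 other tissues for both, but for SLC16A1 it was nearer to fin than to kidney.

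Marker genes of other tissues were low in kidney. None of 44 skeletal muscle, 35 heart muscle, 61 hepatocyte and 44 epidermis genes was called (0%, against 2.46% of all genes), and their shares of summed kidney FPKM were 0.00851%, 0.00160%, 0.0273% and 0.129%. Heart muscle, hepatocyte and epidermis genes are high in tissues that the call sets against kidney. For these lists the absence of calls was thus largely fixed by the rule, and the shares are the description. The muscle actin acta1 (Pjo16962) was 0.12 in kidney and 6707 in muscle, and the fibrinogen chain FGB (Pjo00985) was 0.26 in kidney and 10019 in liver. Epcam (Pjo13285), an epithelial adhesion protein, was the most abundant epidermis gene, at 616 in kidney, 4472 in gill, 2940 in fin and 1154 in muscle. None of 22 exocrine pancreas and 81 ribosomal protein genes was called, and 1 of 18 gut genes was (5.56%), the aminopeptidase Anpep already described. In lists this small such counts are not far from the share of all genes. The median difference of the ribosomal genes was 0.15 as deposited and -1.23 after scaling, so its sign depends on the scale.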

How the data were processed

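RNA of 7 tissues of the ratmouth barbel was extracted with TRIzol and made into libraries with a VAHTS Universal V6 kit for MGI sequencers, per the labels' protocols. The values are FPKM as deposited by the authors in a single table, to 2 decimals, for 26107 genes, of which 21296 carry a symbol. The submitters' processing notes name HISAT2 2.2.1 and RSEM 1.3.3 without their roles. Neither the genome build nor the annotation was given in the sources used here. No sequence was used.

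Groups were taken from the tissue labels. Log2(FPKM + 1) was computed in Python 3.11.15 with pandas 2.3.3 and numpy 2.4.6, and figures were drawn with matplotlib 3.10.9. With 1 library per tissue, no test was run. Median-of-ratios scaling used the 17596 genes above 0 in all 6 libraries. The minimum and the fold limit were then applied to the scaled values.

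The members and the 32 gene lists were chosen with earlier results of these data known. Genes were named by a rule. It took the 4 markers, the 12 named genes of largest ratio on either side of the muscle split and the 5 most abundant genes. It also took the named lower genes, the called and most abundant members of each list, and genes that define a cell type. Alternatives changed the pseudocount, the minimum, the fold limit, the scaling, the tissues and the reference. Some genes are not reported here.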

Additional observations from a re-analysis of the deposited data

How the results depend on the processing

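Each tissue is 1 library and read depth is unknown, so counting error and biological spread could not be estimated. No paired analysis was possible because each group is 1 sample. The alternatives were a pseudocount of 0.1, minimums of 5 and 20, fold limits of 3 and 10, 2 scalings, globins left out, the median of the others, each tissue left out and muscle added. They gave 129 summary values that stayed near their size, 50 that moved and 1 that was counted as reversed. Among the summary values a change of sign was counted only for the nephron, blood and egg medians. The 129 thus include the median of all genes, which was 0.33 as deposited and -0.05 after median-of-ratios scaling. The cause of these moves was not tested.

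Genes higher in kidney numbered 642. They became 1682 at a fold limit of 3, 52 at 10, 38 after median-of-ratios scaling, 1016 without globins, 2940 against the median of the others, 1594 without fin and 70 with muscle added. Genes lower in kidney numbered 2. They became 1 at a minimum of 20, 11 at a fold limit of 3, 0 at 10, 19 after scaling, 0 without globins, 171 against the median, 20 without heart, 4 without gill, 10 without fin and 0 with muscle added. The 70 genes low in muscle became 45 at a minimum of 20, 45 at a fold limit of 10, 31 after scaling, 320 against the median and 109 without gill. The 461 genes at or above kidney in muscle became 1278 at a fold limit of 3, 1 at 10, 1 after scaling, 2036 against the median, 1318 without fin and 0 with muscle added. With muscle added, the 70 higher genes and the 0 of the 461 were fixed by how the muscle groups were defined. The same holds for the calls of each class.

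Nephron calls numbered 27, and became 17 at a minimum of 20, 12 after scaling and 47 against the median. Blood calls numbered 6, and became 12 at a pseudocount of 0.1, 20 and 2 at fold limits of 3 and 10, 3 after scaling, 12 without globins, 59 against the median, 11 without heart, 12 without gill and 11 without fin. Egg calls numbered 66, and became 101 and 1 at fold limits of 3 and 10, 0 after scaling, 105 against the median and 1 with muscle added. At a pseudocount of 0.1 the median differences were 1.76 for nephron, 1.22 for blood and 4.37 for egg genes. After scaling those of blood and egg genes were -0.022 and 2.30, and with muscle added that of egg genes was 2.80.

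Among single genes that were called, 13 reversed, and each of these had muscle at or above kidney. All reversed with muscle added, an outcome fixed by those muscle values. The log2 differences from the highest other tissue were then -0.0136 for bora, -0.28 for LRP2, -0.0654 for mx2, -0.0401 for CDC25A, -0.0819 for MOV10L1, -0.30 for Eloa, -0.11 for foxh1, -0.48 for caprin2, -0.17 for GDF9, -0.34 for Haus5, -0.16 for HROB, -0.25 for slc12a8 and -0.73 for ZP4 Pjo20597.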
